A study of Mus musculus with 25 samples.

Results

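The microglia of the injured mouse spinal cord at day 10 (D10) and day 21 (D21), pooled as the late phase, were compared with microglia of mice that had laminectomy alone (Ctrl), in which the vertebral bone is removed and the cord itself is spared. Microglia were the cells with cell type code 1 in the deposited cell table, and their raw counts were summed per library. The late phase held 3751 of these cells in 4 libraries and Ctrl 1887 in 2 libraries, so 6 of the 25 libraries were compared, out of 13289 cells of this code in the whole series. The 11 libraries of D1, D2 and D3 entered the same fit, which let each change be followed from the early to the late phase. The question was which microglial changes remained weeks after injury.

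Cells came from a lesion segment of 5 mm, freed of myelin on a density gradient, sorted, and captured for 10x Genomics 3′ libraries. Every mouse carried Cx3cr1CreERT2, an inducible Cre recombinase at the locus of the fractalkine receptor, in the controls as well. Ctrl_mixed 1 (female), D10_mixed 1 and D10_mixed 2 (male) and D21_mixed 1 (female) came from Cx3cr1CreERT2 mice, with all YFP+ cells sorted together. Ctrl_resident 1 (male) and D10_resident 1 (female) came from Cx3cr1CreERT2:R26tdTomato mice, which also carry a red reporter that Cre switches on, and held RFP+/YFP+ cells. Sort and strain are therefore split the same way. Ages and the time after laminectomy are not given in the sources used here. Each library pools 1 to 3 mice, so the library is the replicate. The p-values measure only the spread between libraries, which was estimated over all 17 libraries of the fit, 11 of them early. D21 rests on 1 library. Of the 11 early libraries, D2_mixed 1 and D3_resident 1 were female and the others male. D2_resident 1, D3_resident 1 and D3_resident 2 were resident libraries and the others mixed. Early and late thus differ in the make-up of sex and sort. Sex was a term in the fit and sort was not.

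Microglia are the resident macrophages of the central nervous system. In the healthy cord they express a set of homeostatic genes such as P2ry12 and Tmem119. Near damaged myelin, microglia of many models take up lipid debris, and a set that includes Apoe, Cst7, Lpl and Itgax, known as disease-associated microglia genes, rises while homeostatic genes fall.

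The 6 libraries held 458 to 1429 microglia and 1853773 to 5597527 UMIs each. The median UMI count per cell was 3760 to 3810 in Ctrl and 2606 to 3439 in the late libraries, and the median number of genes per cell was 1806 and 1847.5 in Ctrl and 1005 to 1139 late. Code 1 made up 100% of the cells of both Ctrl libraries and 82.7% to 94.9% of the late libraries. The summed level of 9 microglia marker genes was 16849 to 18360 CPM in Ctrl and 12342 to 14969 late. CPM here is a UMI count scaled to the library's total in tested genes times its TMM factor, which edgeR computes so that most genes stay level. These factors were 1.42 and 1.47 in Ctrl and 0.766 to 0.976 late, a gap that matters for every direction given here. With library totals alone, the median log2 change of all genes moved from -0.03 to -0.69. None of the clusters 2, 6, 7 and 10 of the deposited table held a Ctrl microglia, while cluster 2 held 63 to 130 and the cycling clusters 6, 7 and 10 held 15 to 65 cells of each late library.

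Of 10254 genes tested, 1669 (16.3%) differed between late and Ctrl microglia at an adjusted p under 0.05 by edgeR's quasi-likelihood test, 1158 (11.3%) higher and 511 (4.98%) lower in late. At least a 2-fold difference was seen in 953 of those higher and 408 of those lower. The levels of all 4 late libraries lay beyond both Ctrl libraries for 1664 of the 1669, while 26.9% of all tested genes had every late library above Ctrl and 26.0% had every one below. Leaving out Ctrl_mixed 1 left 347 calls, leaving out Ctrl_resident 1 left 913, and leaving out D21_mixed 1 left 1073. The share of calls that were higher was 69.4% with TMM, 59.7% with RLE size factors, 60.0% with DESeq2 and 13.3% (580 of 4348) with no scaling factors. Among the 329 called genes of the lists and rules used below, 123 kept their call under every one of 36 alternatives that gave a value, and the text leads with these.

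Many genes of lipid handling rose. Of 24 tested members of a list for lipid transport and storage, 17 were higher and 1 lower in late microglia, and the median log2 change was 2.82, against -0.03 over all genes tested. Apoe, the main apolipoprotein of the nervous system, stood at 1114 CPM in Ctrl_mixed 1 and 1109 in Ctrl_resident 1, and at 62678 in D10_resident 1, 52350 in D10_mixed 1, 62694 in D10_mixed 2 and 89161 in D21_mixed 1. All late libraries thus lay far above both controls, which were nearly equal. Apoe alone took 0.157% and 0.162% of microglial UMIs in Ctrl and 5.10% to 6.82% in the late libraries, and its fitted log2 difference was 5.92 (SE 0.57, edgeR adjusted p = 3e-06). Apoc1 and Apoc4, smaller apolipoproteins, lie beside Apoe on chromosome 7 of GRCm38 (Apoe 19696109 to 19699188, Apoc1 19689481 to 19692660, Apoc4 19678083 to 19681479, all on the minus strand). Apoc1 stood at 1.77 and 1.47 CPM in Ctrl and at 524, 844, 799 and 867 CPM in D10_resident 1, D10_mixed 1, D10_mixed 2 and D21_mixed 1 (the order used for late values from here on). Apoc4 had 2 counts in all Ctrl microglia and 3656 in late microglia, a ratio of 1332 on TMM-scaled totals with a 95% counting interval of 369 to 11005, and of 849.9 (235 to 7020.5) on plain UMI totals. Its 4 late libraries stood between 166 and 403 CPM.

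Lipid uptake, storage and efflux genes were higher together. Lpl, which frees fatty acids from lipoproteins, was at 38.7 and 53.0 CPM in Ctrl and 959.9, 959, 1078 and 1378 CPM late (log2 4.57, SE 0.33, edgeR adjusted p = 8.3e-08). Fabp5, a fatty acid carrier, was at 5.43 and 14.7 CPM in Ctrl and 627, 658, 547 and 1550 CPM late, so the D21 library stood above the D10 libraries, which were close to each other. Ch25h, which makes 25-hydroxycholesterol, went from 0.632 and 1.10 CPM in Ctrl to 268, 235, 200.1 and 233 CPM late, with little spread among late libraries. The scavenger receptor Msr1 (log2 4.28), the lipid droplet coat Plin2 (3.20), the sterol exporter Abcg1 (2.56) and the lysosomal sterol carrier Npc2 (1.82) were also higher, and each kept its call under every alternative. The exporter Abca1 was higher as well (2.13), with a call lost without Ctrl_mixed 1 (2.49, edgeR adjusted p = 0.0825) and without Ctrl_resident 1 (1.83, 0.12). Of 18 tested genes of cholesterol synthesis, 17 did not pass the test and 1 was lower, Sqle (-1.35, edgeR adjusted p = 0.0418), whose call was lost without Ctrl_resident 1 (-0.43, 0.683) and without each of D10_mixed 1, D10_mixed 2 and D21_mixed 1 (-1.46 to -1.17). The median of that list was -0.30. With no scaling factors 10 of the 18 were lower (median -0.95), and with pool as a term 1 was higher and none lower.

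**Figure D1:**
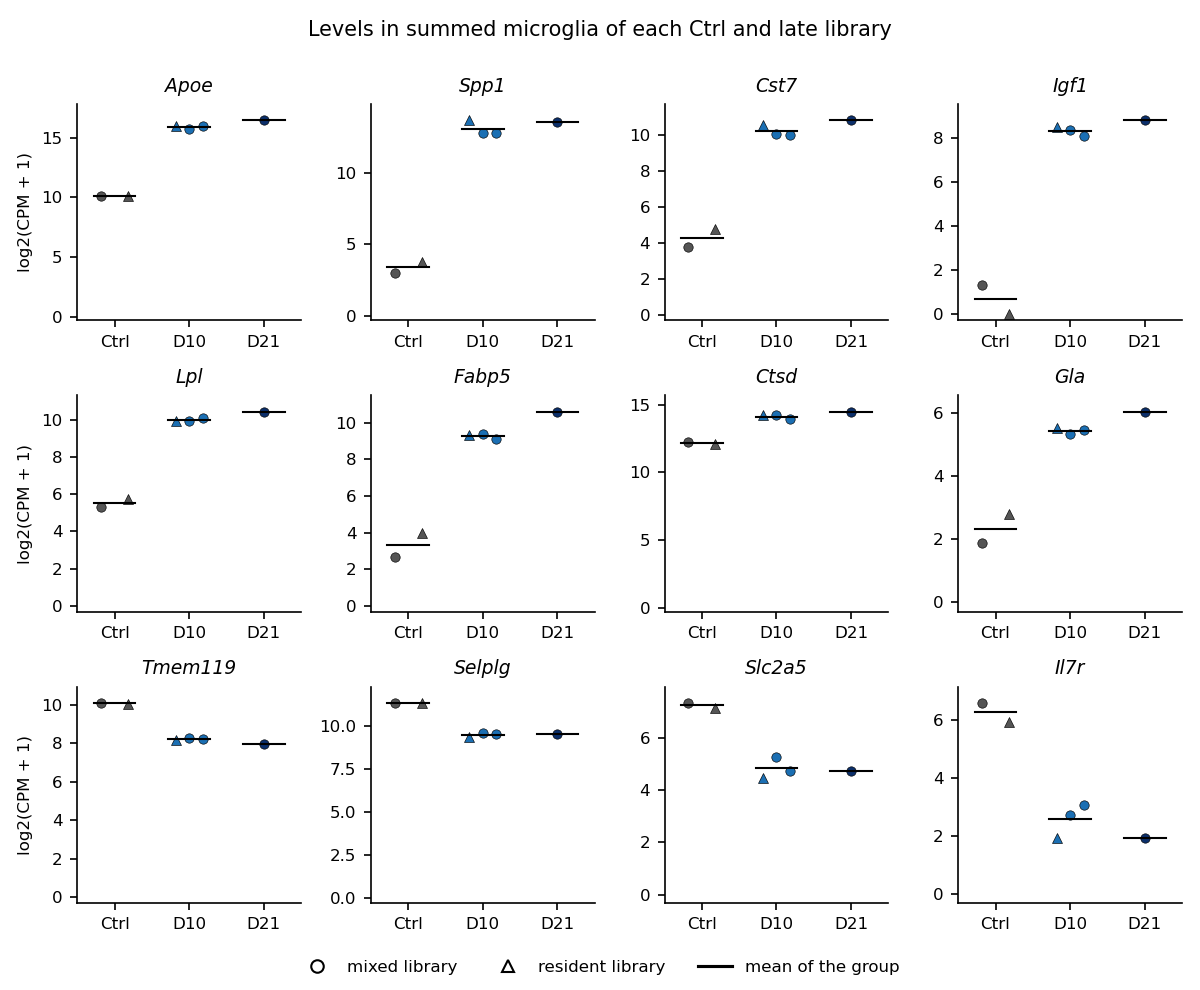
Levels of 12 genes in summed microglia, as log2(CPM + 1), for 2 Ctrl, 3 D10 and 1 D21 library. Each point is 1 library (circles mixed, triangles resident) and each line the mean of its time point. In all panels the late points lie on 1 side of both Ctrl points, which the choice of called genes largely fixes.

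Secreted factors and the disease-associated set followed. Of 28 tested genes of that list, 26 were higher and none lower, with a median log2 change of 2.67, and 21 of the 26 kept their call under every alternative. Spp1, the secreted phosphoprotein osteopontin, was at 6.95 and 12.9 CPM in Ctrl and 12895, 6874, 6960 and 11832 CPM late. Cst7, an inhibitor of cysteine proteases, was at 12.6 and 26.5 CPM in Ctrl and 1453, 1051, 1005 and 1774 CPM late (log2 6.20, SE 0.56, edgeR adjusted p = 1.4e-06). Igf1, an insulin-like growth factor, was at 1.52 and 0 CPM in Ctrl and 364, 326, 272 and 450.0 CPM late. In these 3 genes every late library lay far above both Ctrl libraries. Gpnmb, a membrane glycoprotein of lysosome-rich phagocytes, had no count in Ctrl and 2354 counts late, at least 572-fold higher on TMM-scaled totals against a floor of 3 counts over the Ctrl group, and at least 365-fold on plain UMI totals. Its late levels were 100.3, 138, 73.4 and 334 CPM, highest at D21. Clec7a (4.02), a receptor for beta-glucans, Csf1 (3.19), the growth factor of microglia themselves, and Tyrobp (1.64), the adaptor through which Trem2 signals, also kept their call throughout. Trem2, the lipid receptor upstream, was higher by 0.99 (edgeR adjusted p = 0.0208) but did not pass without Ctrl_mixed 1 (1.21, 0.11), without Ctrl_resident 1 (0.79, 0.224), without D21_mixed 1 (0.84, 0.076) or with no scaling factors (0.32, 0.347). The 2 members that did not pass were Cd83 (1.27) and Lgals3bp (1.24), and both passed with pool as a term (1.39 and 1.33).

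Lysosomal genes rose in part. Of 37 tested members 20 were higher and none lower, with a median log2 change of 1.03 that fell to 0.35, with 12 higher and 3 lower, when no scaling factors were used. Of the 20 calls, 9 were lost without Ctrl_mixed 1 and 8 without Ctrl_resident 1. Ctsd, an aspartic protease of the lysosome, was at 4954 and 4474 CPM in Ctrl and 19112, 18815, 15435 and 23073 CPM late. Ctsb, a cysteine protease, was at 1264 and 1171 CPM in Ctrl and 5180, 5256, 5085 and 6448 CPM late. Both groups were tight in these 2 proteases and far apart. Gla, the alpha-galactosidase that degrades glycolipids, was at 2.65 and 5.89 CPM in Ctrl and 45.7, 39.2, 43.4 and 65.5 CPM late (log2 3.62, SE 0.39, edgeR adjusted p = 1.02e-05). Subunits of the proton pump that acidifies the lysosome, Atp6v0c (1.71) and Atp6v1a (1.57), kept their call under every alternative, as did Cd63 (2.86) and Cd68 (1.70), membrane proteins of lysosomes. The abundant protease Ctss (0.42) did not pass.

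Many lysosomal promoters are known to hold an E-box palindrome bound by TFEB-family factors. The core TCACGTGA, which reads the same on both strands, was searched in the RefSeq windows from 250 bases before to 50 after each gene start (GRCm38.p6). It was found in 0.974% of 32851 windows and in 2.449% of 8249 tested genes with a window. Of the 28 lysosomal members with a window 6 held it, and 5 of these 6 were among the genes that were higher late. Of all higher genes with a window, 34 of 946 (3.594%) held it, and of all lower genes 8 of 405 (1.975%). Without Ctrl_resident 1 the call of Ctsa was lost (1.31, edgeR adjusted p = 0.0675). The stretches around it in the 5 are shown 5′ to 3′ on the gene's strand, with the core in capitals, to let their surroundings be compared. The core is shared because it was searched for, and only called members are shown.
Ctsa (chr2:164833750-164833777, plus strand): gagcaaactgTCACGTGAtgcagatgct
Ctsd (chr7:142387909-142387936, minus strand): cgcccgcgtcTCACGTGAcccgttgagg
Gla (chrX:134601216-134601243, minus strand): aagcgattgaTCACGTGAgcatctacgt
Atp6v0d1 (chr8:105566051-105566078, minus strand): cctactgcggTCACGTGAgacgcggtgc
Atp6v1a (chr16:44139374-44139401, minus strand): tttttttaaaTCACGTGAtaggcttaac
The sixth, Mcoln1, a lysosomal calcium channel, did not pass (0.35, edgeR adjusted p = 0.613). A match is a description of the letters and not of binding. The genes for the factors themselves, Tfeb (-0.32) and Tfe3 (-0.71), did not pass, and Mitf (0.71) did not either. With no scaling factors Tfeb and Tfe3 passed as lower (-0.99 and -1.35), and Tfe3 also did in a fit of Ctrl and late libraries alone (-0.71, edgeR adjusted p = 0.0247). Mitf passed as higher under 6 alternatives, among them DESeq2 (0.60, adjusted p = 0.0238) and pool as a term (0.74, edgeR adjusted p = 0.0324).

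Of 20 tested homeostatic genes 9 were lower and none higher, with a median log2 change of -1.10 (-1.20 with RLE size factors and -1.75, with 17 lower, with no scaling factors). With pool as a term 12 were lower and 1 higher (median -0.92). Fcrls, a member not called, stood higher at D10 than in Ctrl within both pools they share. These differences in log2(CPM + 1) were 1.15 in the mixed and 0.82 in the resident libraries. Without Ctrl_mixed 1, 6 of the 9 calls were lost. Tmem119, a surface marker of microglia, was at 1091 and 1036 CPM in Ctrl and 281, 309.6, 294 and 249 CPM late (log2 -1.91, SE 0.32, edgeR adjusted p = 0.000438). Slc2a5, a fructose transporter, was at 159.8 and 139 CPM in Ctrl and 21.0, 37.6, 25.7 and 25.6 CPM late. Selplg, the ligand of P-selectin, was at 2640 and 2605 CPM in Ctrl and 669, 769, 751 and 760.0 CPM late. The late libraries were close to one another in all 3 and did not overlap Ctrl. P2ry12, the ADP receptor that steers microglial processes, was at 2539 CPM in Ctrl_mixed 1 but 969 in Ctrl_resident 1, and at 285, 481, 519 and 327 CPM late. Its change of -2.29 (edgeR adjusted p = 0.00226) did not pass without Ctrl_mixed 1 (-0.84, 0.441). P2ry13 (-1.46), Siglech (-1.69) and Adgrg1 (-1.93) were also lower and also did not pass without that library (-0.99, -1.24 and -1.39). Among abundant members, the growth factor receptor Csf1r did not pass (-0.61, edgeR adjusted p = 0.115), with 2293 and 2044 CPM in Ctrl and 1130 to 1615 late. It passed as lower with DESeq2 (-0.72, adjusted p = 0.0339), with no scaling factors (-1.28, edgeR adjusted p = 0.00118) and under 3 other alternatives. Cx3cr1, whose locus carries the Cre, differed between resident and mixed libraries, in which sort and strain cannot be told apart. It was at 1098 and 827 CPM in the resident libraries of Ctrl and D10, and at 142, 87.3, 72.0 and 23.6 CPM in the mixed libraries of Ctrl, D10 and D21.

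Among genes with at least 50 CPM in Ctrl, Il7r, a receptor chain for interleukin-7, had the largest fall, from 95.5 and 60.4 CPM in Ctrl to 2.80, 5.67, 7.44 and 2.85 CPM late (log2 -4.19, SE 0.47, edgeR adjusted p = 1.2e-05). Siglece, an inhibitory receptor for sialic acids, went from 68.7 and 62.9 CPM to 9.80, 10.7, 19.4 and 9.39 CPM. Rtn1, a protein of the endoplasmic reticulum, went from 61.6 and 56.7 CPM to 6.53, 16.4, 14.4 and 5.98 CPM, and these 3 genes and Serpinf1 (-2.26) kept their call under every alternative. Adrb1, a receptor for noradrenaline and adrenaline, went from 62.9 and 76.2 CPM to 11.7, 14.5, 14.2 and 10.2 CPM, and lost its call only where D21 alone stood for the late phase. Gbp7, Csmd3, Rnase6 and Col27a1, also among the 12 largest falls, had log2 changes between -2.95 and -2.31, and each of these 4 lost its call under at least 2 alternatives, of which leaving out Ctrl_mixed 1 was one for Csmd3 (-1.63, edgeR adjusted p = 0.336), Rnase6 (-1.53, 0.187) and Col27a1 (-1.88, 0.294).

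Of 13 tested chemokines 7 were higher and none lower, with a median log2 change of 2.07. Ccl4, an attractant of leukocytes, was at 16.2 and 19.5 CPM in Ctrl and 1966, 722, 1017 and 1213 CPM late (log2 6.13, SE 0.74, edgeR adjusted p = 2.72e-05). Ccl3, its neighbour in function, was at 18.2 and 13.3 CPM in Ctrl and 882, 420.2, 536 and 923 CPM late. Cxcl14 was at 1.52 and 1.47 CPM in Ctrl and 136, 162, 138 and 247 CPM late. These 3 did not overlap between groups and, with Ccl6 (2.45) and Cxcl16 (2.07), kept their call under every alternative. Ccl2, the ligand of CCR2 that draws monocytes, did not pass (0.39, edgeR adjusted p = 0.758), and its Ctrl libraries stood at 11.4 and 105.3 CPM with the late ones between 39.1 and 161. Without Ctrl_resident 1 it passed as higher (3.27, edgeR adjusted p = 0.0116), as it did with pool as a term (1.39, 0.0256). Of 13 tested cytokines 3 were higher (Csf1, Il1rn, Il1b) and 4 lower (Il6, Il16, Il1a, Tnfsf13b), and the 4 lower ones each lost their call without Ctrl_mixed 1 (Il6, for example, at -2.63, edgeR adjusted p = 0.115). With no scaling factors 3 cytokines were higher and 6 lower. Tnf was at 17.7 and 17.3 CPM in Ctrl and 15.7 to 28 late. The interleukin-1 receptor antagonist Il1rn was at 0.505 and 0.736 CPM in Ctrl and 12.6, 11.5, 13 and 40.1 CPM late, and its call was lost without Ctrl_mixed 1 (4.20, edgeR adjusted p = 0.122). Il1b (2.20, edgeR adjusted p = 0.0139) did not pass without Ctrl_mixed 1 (1.59, 0.354), without D10_mixed 2 (2.00, 0.0518) or without D21_mixed 1 (1.66, 0.0617). Of 15 factors and feedback genes of the NF-kB pathway only Tnip3 was higher (5.02), and it too did not pass without Ctrl_mixed 1 (5.35, edgeR adjusted p = 0.133). With no scaling factors 5 of the 15 were lower.

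No interferon response gene passed, and the 2 controls differed in them. None of 26 tested members was called, and the median log2 change was 0.11 (-0.56, with 3 lower, with no scaling factors). Ifit3 stood at 12 CPM in Ctrl_mixed 1 and 99.7 in Ctrl_resident 1, and at 55.5, 52.1, 30.5 and 108 CPM late, so the late libraries lay within or near the range of the controls. Isg15 was at 19.7 and 118 CPM in Ctrl and 69.1, 87.5, 53.5 and 149.7 CPM late. In a fit of the mixed libraries alone, whose only control is Ctrl_mixed 1, 7 of the 26 were higher and the median was 1.87. Of the genes of antigen presentation, 3 of 11 tested for MHC class II were higher and 2 of 16 for MHC class I, the latter near the 11.3% of all genes tested. With no scaling factors the counts turned, to 1 higher and 4 lower for MHC class II and to none higher and 1 lower for MHC class I. Cd74, the invariant chain, was at 75.5 and 62.9 CPM in Ctrl and 133, 112, 236 and 553 CPM late, highest at D21, and its call was lost without D21_mixed 1 (1.04, edgeR adjusted p = 0.0999), without Ctrl_mixed 1 (1.99, 0.204) and without Ctrl_resident 1 (1.81, 0.148). H2-Aa, H2-Ab1, H2-D1 and Psmb8, the other 4 called, also each lost their call without Ctrl_mixed 1, at 2.16, 1.96, 1.49 and 0.79. Without D21_mixed 1 the calls of H2-Aa (1.25, edgeR adjusted p = 0.29) and H2-D1 (1.435, 0.104) were lost. H2-Aa did not pass with pool as a term either (1.10, edgeR adjusted p = 0.261). In the resident libraries it was lower at D10 than in Ctrl, by -0.34 in log2(CPM + 1).

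Surface receptors and their partners were called in both directions. Of 23 tested phagocytic and Fc receptors 9 were higher and 2 lower (median 0.47, and -0.21 with no scaling factors), of 15 inhibitory receptors 4 and 2, of 15 complement genes 3 and 1, and of 21 integrins, tetraspanins and Cd44 5 and 2. The medians of the last 3 were 0.42, 0.57 and 0.19, and turned to -0.25, -0.09 and -0.47 with no scaling factors. Without scaling factors the counts of higher and lower were 5 and 6 for phagocytic and Fc receptors, 3 and 6 for inhibitory receptors, 2 and 4 for complement and 5 and 9 for integrins and their group. Without Ctrl_mixed 1, 8 of the 11 phagocytic, 4 of the 6 inhibitory and 4 of the 7 integrin calls were lost. Lower calls made up 4.98% of all genes tested. C3, the central complement component, had 3 counts in Ctrl and 262 late, a ratio of 63.7 on TMM-scaled totals with a 95% counting interval of 21.5 to 311 (40.6 on plain totals, 13.7 to 198), and stood at 16.3, 14.3, 23.7 and 17.1 CPM late. The abundant C1qa did not pass (0.53), at 9305 and 10044 CPM in Ctrl and 13096 to 15820 late. Cd22, an inhibitory receptor better known from B cells, was at 5.05 and 2.58 CPM in Ctrl and 21.0, 28.1, 37.9 and 55.5 CPM late, while Siglece of the same family fell as given above. Cd44, a hyaluronan receptor, was at 3.03 and 1.84 CPM in Ctrl and 16.3, 20.8, 19.9 and 29.9 CPM late. Late levels did not overlap Ctrl in C3, Cd22 or Cd44, and all 3 kept their call under every alternative. Among 16 tested proteases and matrix genes 8 were higher: the urokinase receptor Plaur was at 6.19 and 9.20 CPM in Ctrl and 174, 106, 128 and 139.8 CPM late, and Timp2 (2.24), an inhibitor of metalloproteases, and Fn1 (6.21), fibronectin, also kept their call.

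Many genes of energy supply and translation rose. Of 82 tested ribosomal protein genes 79 were higher (median log2 change 1.64, and 0.97 with 67 higher when no scaling factors were used). Rpl41, a ribosomal protein, was at 1229 and 1116 CPM in Ctrl and 5413, 6103, 5570 and 8037 CPM late. The whole list summed to 68465 and 60979 CPM in Ctrl and 182600 to 271200 CPM late. Of 85 genes of oxidative phosphorylation 65 were higher (1.22), and 38 were higher and 3 lower with no scaling factors. Leaving out Ctrl_mixed 1 ended 33 of the 79 ribosomal, 47 of the 65 oxidative phosphorylation, 10 of the 15 glycolysis and 11 of the 14 iron and antioxidant calls given here. Of 21 genes of glycolysis and hypoxia 15 were higher (1.57), and 10 were higher and 2 lower with no scaling factors. Aldoa, an aldolase, was at 163 and 172 CPM in Ctrl and 772, 891, 698 and 1235 CPM late, and with Gpi1 (1.57), Pgam1 (1.81) and Egln3 (3.81), an oxygen sensor, kept its call under every alternative. Of 20 genes of iron handling and antioxidants 13 were higher and 1 lower (1.25), against 8 and 2 with no scaling factors. Ftl1, the ferritin light chain that stores iron, was at 1326 and 1111 CPM in Ctrl and 7318, 7476, 7288 and 12463 CPM late, with the D21 library highest. The fewer genes per cell in the late libraries moved with these lists, and their part in them was not tested.

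**Figure D2:**
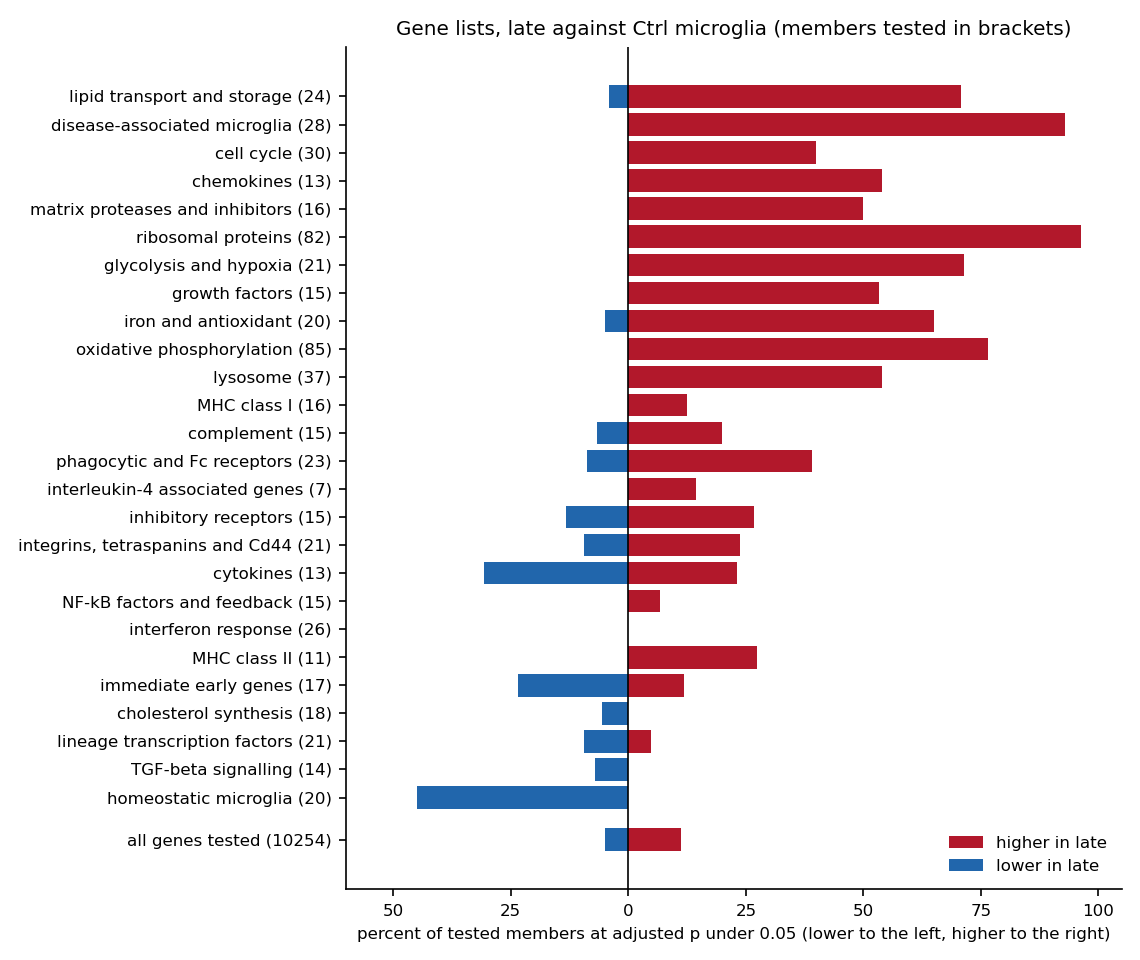
Share of the tested members of 26 gene lists that passed the test (edgeR adjusted p under 0.05), higher in late microglia to the right and lower to the left, ordered by the median log2 change. The lowest bar gives all 10254 genes tested, 11.3% higher and 4.98% lower.

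**Figure D3:**
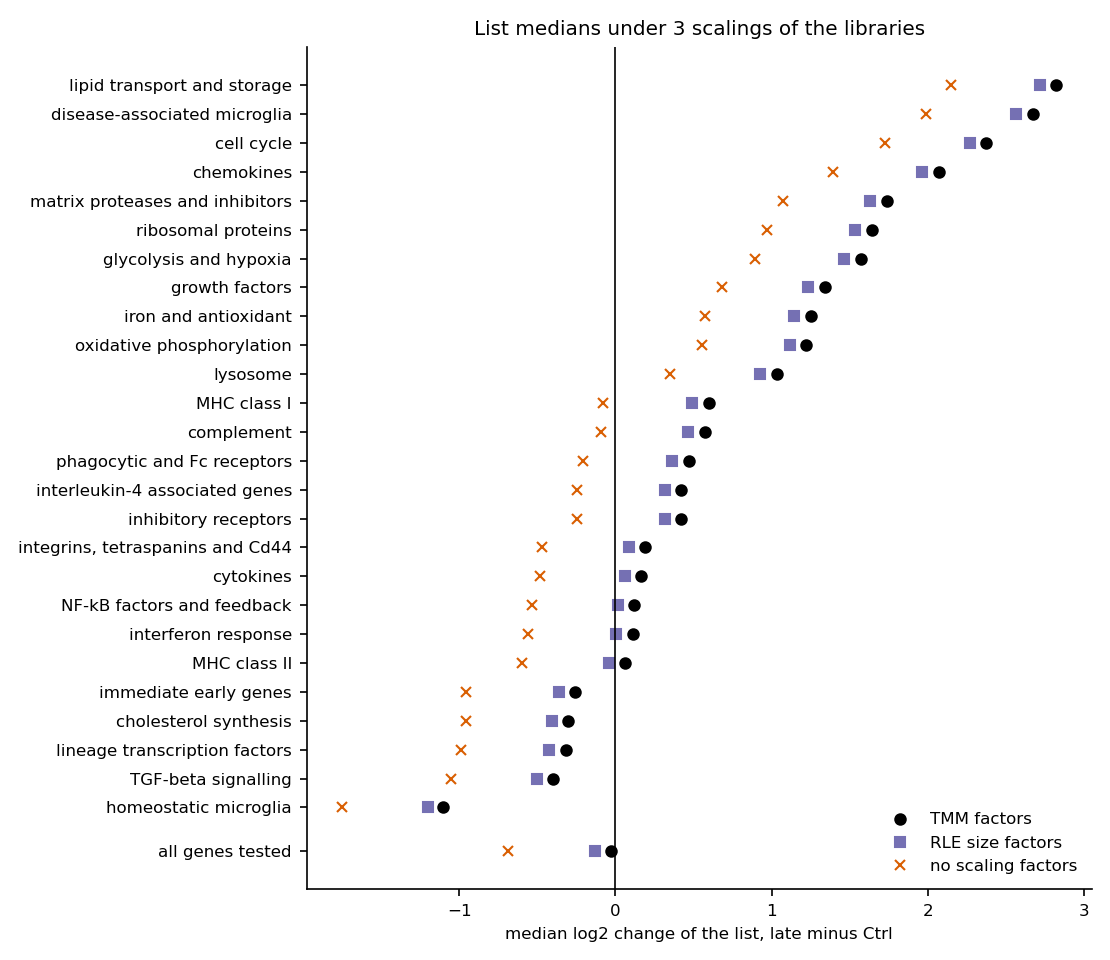
Median log2 change of each list under TMM factors, RLE size factors and no scaling factors. The homeostatic list lies below 0 and the 11 lists from lipid transport to lysosome lie above 0 under all 3, while 10 lists between them lie above 0 with TMM and below 0 with no scaling factors (1 of them, MHC class II, also with RLE), and the other 4 lie below 0 under all 3.

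Proliferation genes were high early and lower in the late phase. All 30 tested cell cycle genes had been higher in the mean of D1, D2 and D3 than in Ctrl, against 2685 of 10254 genes tested. In the late phase 12 were still higher than Ctrl, 26 were lower than in the early phase, and 17 had moved back in the sense defined below. Over all genes tested these numbers were 1158, 1475 and 1914. Top2a, a topoisomerase of dividing cells, was at 0.632 and 14.0 CPM in Ctrl, 24.6, 308 and 206 CPM on average at D1, D2 and D3, and 22.4, 47, 23 and 16.5 CPM late. Its late libraries lay above both Ctrl libraries but well below D2 and D3. Its late change of 2.30 did not pass, and passed without Ctrl_resident 1 (5.11, edgeR adjusted p = 0.0393) and under 3 other alternatives. The replication helicase genes Mcm2 to Mcm7 of the list did not pass in the late phase, with changes from -0.61 to 0.19. Mitosis genes made up the 12, among them Cenpa, a centromere histone, at 3.41 and 2.58 CPM in Ctrl and 51.3, 31.9, 18.2 and 15.1 CPM late, which was the only one of the 12 to keep its call under every alternative. Without Ctrl_mixed 1, 10 of the 12 lost their call. Without the cells of clusters 6, 7 and 10, 10 of the 12 also lost it, and the change of Cdc20 turned from 2.46 to -0.21.

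Calls were sorted by whether they had been present early. The early phase was the mean of the D1, D2 and D3 coefficients against the same 2 Ctrl libraries, which both comparisons share. A change is called persisting when it passed in both phases in the same direction, moved back when it passed early, not late, and the late-minus-early difference passed in the opposite direction, and emerging when it passed late, not early, and the difference passed in the late direction. Early against Ctrl gave 5238 calls (51.1% of genes tested) and late against early 3008 (29.3%). By this rule 1502 changes persisted, 1036 higher and 466 lower. Because both phases are set against the same controls, this count is a description. A further 1914 moved back toward Ctrl, which does not show that they reached it, 126 emerged (96 higher, 30 lower), and 1821 early and 40 late calls could not be told apart between the phases. Leaving out Ctrl_mixed 1 left 292 persisting, 1472 moved back and 52 emerging. Leaving out D10_mixed 2 left 785 moved back and leaving out D2_mixed 1 left 920.

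Time overlapped with sequencing pool (the SLX code of the deposited cell table), and this bears on every count that uses the late-minus-early difference, also those in the paragraphs that follow and among cell cycle genes. Both Ctrl libraries shared a pool with D10 libraries of their own sort, D21_mixed 1 shared one with the 3 D1 libraries, and D2_resident 1 was the only early library run with a Ctrl library. With pool as a term in the fit, 2467 genes passed late against Ctrl (1659 higher, 808 lower) and 1273 persisted, but 1 had moved back and 6 emerged. Within the pool of D21 and D1, the D21 library lay beyond all 3 D1 libraries in the late-minus-early direction for 1781 of the 1914 and 119 of the 126 genes. These are levels of the libraries that chose the genes, and carry no test.

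**Figure D4:**
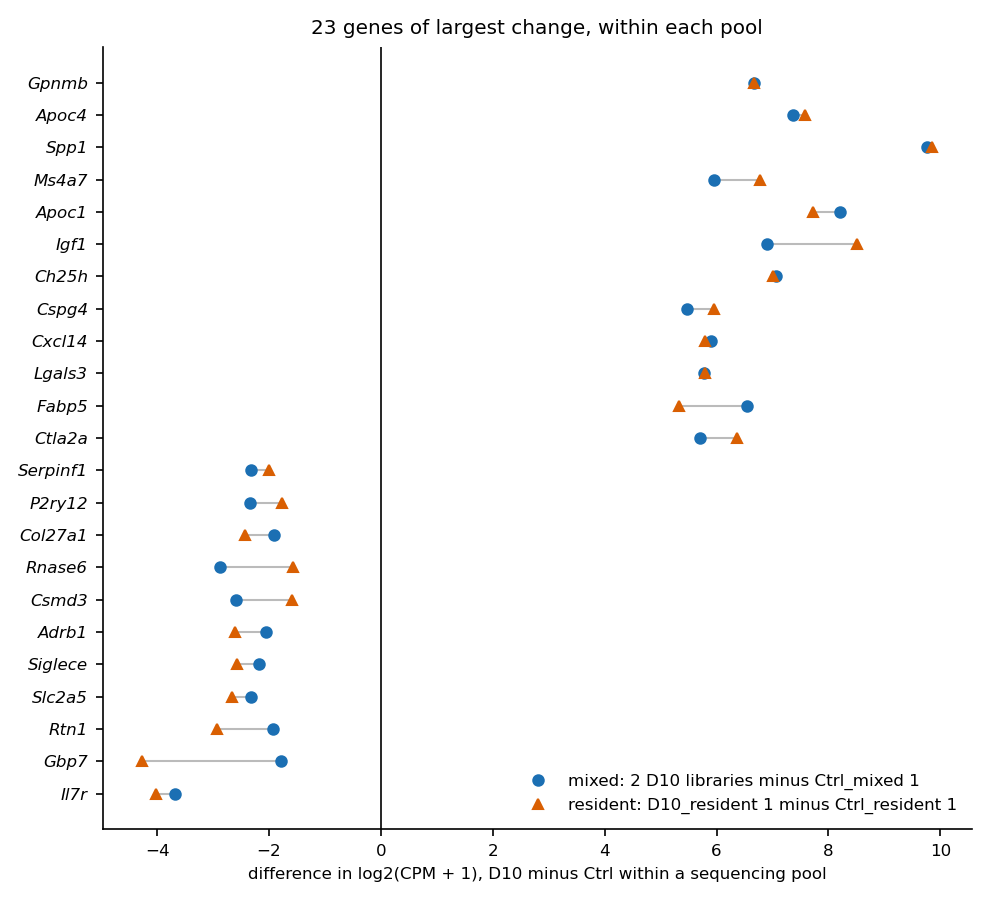
Differences in log2(CPM + 1) between D10 and Ctrl within the 2 sequencing pools that hold both, for the 12 largest rises and 11 of the 12 largest falls. Circles are the mixed libraries, triangles the resident libraries, and both lie on the same side of 0 for all 23 genes shown, which the choice of genes fixes.

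Among persisting changes, late levels were nearer to Ctrl than early ones for 479 genes, further from it for 106, and not told apart for 917. Of the 20 homeostatic genes, 14 were higher late than early and none lower, against 1533 and 1475 of 10254 genes tested. Of these 14, 7 persisted below Ctrl while the other 7 had moved back, a class that held 1 gene in all with pool as a term. Selplg, for example, had a log2 change of -2.66 early and -1.83 late, and Slc2a5 of -3.71 early and -2.49 late. Tmem119 did not pass that test, at -1.85 early and -1.91 late. Spp1 had peaked earlier, at 28183, 18172 and 29914 CPM on average at D1, D2 and D3. Lipid genes moved the other way. Apoe was 1.58 above Ctrl early and 5.92 late (late minus early 4.34, edgeR adjusted p = 3.27e-08), Apoc4 4.22 and 10.16, and Apoc1 3.36 and 8.76. Of the lipid list 15 of 24 were higher late than early and 2 lower, Msr1 and Cd36, against 1533 and 1475 of all 10254 genes.

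Emerging genes included an integrin, an enzyme and a complement gene. Itgax, the integrin CD11c, was at 5.31 and 2.58 CPM in Ctrl, 6.35, 2.19 and 2.61 CPM on average at D1, D2 and D3, and 28.5, 40.3, 53.0 and 96.8 CPM late (late against early 3.58, edgeR adjusted p = 5.57e-06). Il4i1, a secreted amino acid oxidase, was at 9.47 and 2.58 CPM in Ctrl, 2.30, 1.85 and 6.04 CPM early, and 76.1, 74.3, 91.4 and 68.0 CPM late. In both genes every late library lay above every Ctrl library. These 2 and C3 kept their late call under every alternative, whereas Axl (2.48), a receptor for dying cells, Plau (2.16) and Abca1 each lost it without Ctrl_mixed 1 (1.80, 2.30 and 2.49, with adjusted p of 0.308, 0.0827 and 0.0825). Among the 30 emerging falls, Alox5ap, the activating protein of leukotriene synthesis, was at 460.4 and 529 CPM in Ctrl and 273, 251, 221 and 237 CPM late (-1.01, edgeR adjusted p = 0.00136). It lost its call only where D21 alone stood for the late phase. The other 5 largest emerging falls, Socs3, Klf2, Pla2g4a, Nrm and Tuba1a, each lost their call when 1 Ctrl library was left out. This was Ctrl_resident 1 for Socs3 (-0.71) and Pla2g4a (-0.67), and Ctrl_mixed 1 for Nrm (-0.56). Klf2 (-1.23) and Tuba1a (-0.96) lost it when either one was left out. Their changes were -1.47 and -1.06 without Ctrl_mixed 1, and -0.98 and -0.86 without Ctrl_resident 1.

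Genes that moved back were not confined to proliferation. Mt2, a metallothionein that binds zinc, was at 1.77 and 5.89 CPM in Ctrl, 272, 49.95 and 60.3 CPM on average at D1, D2 and D3, and 24.3, 13.9, 13.2 and 12.8 CPM late. The late levels remained above both Ctrl libraries, with a difference of 2.24 that did not pass (edgeR adjusted p = 0.0866). It passed with DESeq2 (2.08, adjusted p = 0.035), without D1_mixed 3 (2.24, edgeR adjusted p = 0.00674), with no expression filter and in a fit of Ctrl and late libraries alone. Nav2, a cytoskeletal regulator, was at 176 and 244 CPM in Ctrl, 4.16, 28.4 and 16.0 CPM early and 77.9, 53.9, 70.5 and 48.4 CPM late. No late library reached Ctrl, and the late difference of -1.71, which did not pass, passed as lower under 11 alternatives (with pool as a term, for example, -1.61, edgeR adjusted p = 0.00866). Of 13 tested chemokines 3 moved back, Ccl2 and Ccl7 among them, against 1914 of 10254 genes tested: Ccl2 was 2.90 above Ctrl early and 0.39 late, and Ccl7 3.93 and -0.75.

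**Figure D5:**
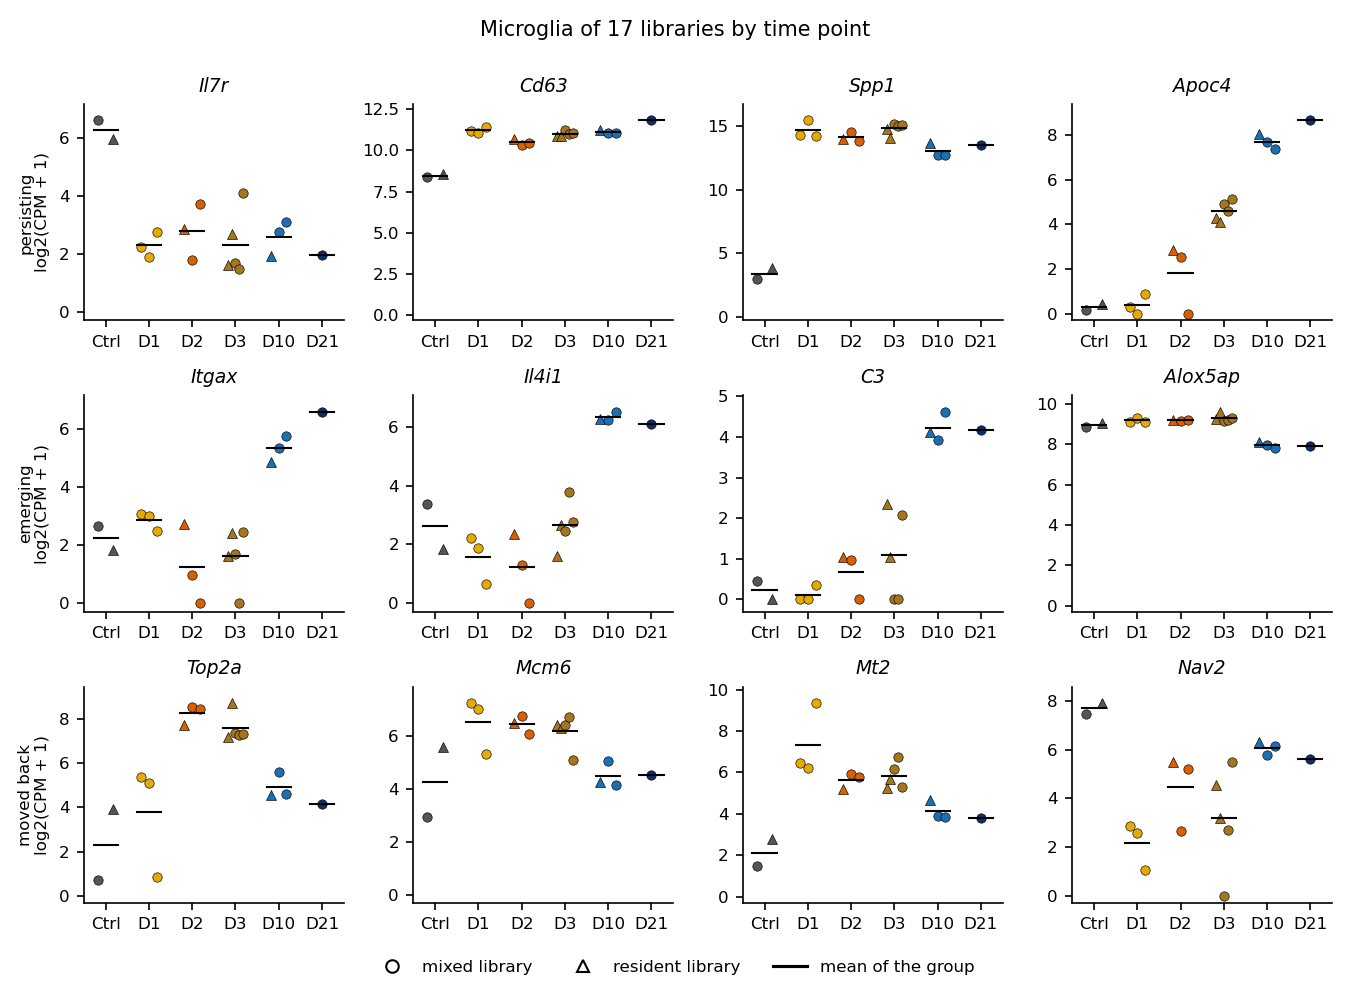
Levels of 12 genes as log2(CPM + 1) in the microglia of 17 libraries by time point, with the line at the mean. The upper row holds persisting changes, the middle row emerging ones and the lower row changes that moved back toward Ctrl.

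D21 rests on 1 library, so a test of D21 against D10 has little reach and a low count does not show that they are alike. With D10 and D21 as separate terms in 1 fit, no gene of 10801 passed for D21 against D10 by edgeR, 205 had an unadjusted p under 0.05, and DESeq2 gave 0. With the infiltrating libraries added, 9 genes passed, all higher at D21. Gpnmb and Fabp5 were among the genes highest in D21_mixed 1, which came from another pool. In 10 of the 14 named genes with 1 late library standing apart, D21_mixed 1 was that library, and pool and time cannot be told apart for it. Its TMM factor (0.766) was also lower than those of the D10 libraries (0.952 to 0.976), which raises its levels. The part of this factor in the count was not tested.

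Markers of other cells were checked in the same sums. Of 8 monocyte markers 4 were tested and 2 were higher, Fn1 and S100a4 (2.37, edgeR adjusted p = 0.0482, and not passing without any 1 of the Ctrl or D10 libraries), and the list summed to 7.33 and 15.1 CPM in Ctrl and 245 to 325 CPM late, while Ly6c2, Ccr2 and Vcan were too low to test. Of 9 markers of infiltrating macrophages 7 were tested and 3 were higher: Ms4a7, a membrane protein, was at 0 and 0.368 CPM in Ctrl and 149, 70.7, 52.5 and 105.03 CPM late, and Lyz2, lysozyme, at 222 and 235 CPM in Ctrl and 1825, 3059, 2743 and 5295 CPM late. Their part in the rises given above was not tested. Of 8 markers of border macrophages Folr2 and Pf4 were higher (Pf4 not passing without Ctrl_mixed 1, 5.47, edgeR adjusted p = 0.0688), while Cd163, Lyve1 and Cd209f were too low to test, and Mrc1 was at 0.379 and 2.21 CPM in Ctrl and at most 1.87 CPM late. The B cell markers Ighm (-1.59) and Cd79b (-1.27) and Klrd1 (-3.58), listed for dendritic cells, were lower, as was the endothelial marker Pecam1 (-2.59), while Flt1 (5.25) of the same list was higher. Without Ctrl_mixed 1 the 4 falls did not pass (Ighm -1.16, edgeR adjusted p = 0.235, Cd79b -0.79, 0.456, Klrd1 -2.55, 0.258, Pecam1 -2.29, 0.0556), and Flt1 did. Cd79b did not pass without D21_mixed 1 either (-1.08, 0.0575). No oligodendrocyte, neutrophil, neuron or erythrocyte marker passed, and no T or NK cell marker was abundant enough to test. Gfap, the intermediate filament of astrocytes, was higher at 11.7 to 26.1 CPM late against 1.39 and 2.21 CPM in Ctrl, and did not pass without Ctrl_mixed 1 (3.19, edgeR adjusted p = 0.133) or Ctrl_resident 1 (3.32, 0.051). Free RNA was not subtracted, and its part was not tested.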

How the data were processed

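Per the submitters' processing notes, the authors ran Cell Ranger 3.1.0 on GRCm38 (mm10); further steps are not given in the sources used here. The deposited matrices hold raw UMI counts per gene and cell, and the deposited cell table gives the authors' cell type and cluster codes (other) and the mitochondrial percent of each cell. Its 30958 cells had at most 22.65% mitochondrial reads, no barcode was shared between libraries, and doublet removal is not described. Counts of microglia were summed per library where at least 20 such cells were present (17 libraries). They were tested with edgeR 4.0.16 (quasi-likelihood, TMM, filterByExpr, phase and sex as terms, Benjamini-Hochberg adjusted p under 0.05). The test was checked on simulated data that held neither the gap in scaling factors between Ctrl and late nor a pool effect. That check therefore does not bear on either. Ratios of counts carry 95% counting intervals that cover counting error only. Members and lists were chosen with earlier results of these data known. Genes were named by rule: the 12 largest rises and falls with at least 50 CPM and no overlap, the 6 largest of each class, and list members. Some items are not reported here. A D3 library with conflicting labels was not used. DESeq2 1.42.0 and the other alternatives are in the closing section. Promoters came from RefSeq tables of GRCm38.p6.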

Additional observations from a re-analysis of the deposited data

Results flagged for a closer look

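In 14 of the 129 genes named (10.9%), 1 of the 4 late libraries lay apart from the other 3, with a gap above Dixon's 95% critical value. Chance flags about 1 in 20 groups. The levels compared are TMM-scaled, with a factor of 0.766 in D21_mixed 1 and 0.952 to 0.976 in the D10 libraries. A lower factor raises the level, and the gaps were not tested on plain totals. D21_mixed 1 set 10 of the 14, and was the high library in each. It stood at 1550 CPM for Fabp5 (the D10 libraries at 546.7 to 657.6), at 12463 for the iron store Ftl1 (7288 to 7476), at 1131 for the lectin Lgals3 (328 to 462), at 130.4 for the elastase Mmp12 (13.4 to 27.1) and at 2957 for the sterol carrier Npc2 (2015 to 2075). Mmp12 had no count in Ctrl, and its call against Ctrl was lost without Ctrl_mixed 1, where the log2 change was 9.06, against 10.32 with both controls. D21_mixed 1 also stood at 4046 CPM for Trem2, 238.8 for Axl, 6448 for Ctsb, 40.1 for Il1rn and 449 for the proteasome subunit Psmb8. D10_resident 1 was high for Cx3cr1 (827 CPM, the others 23.6 to 87.3) and for Mt2 (24.3 CPM), and low for Socs3 (9.80 CPM, the others 21.6 to 23.3). D10_mixed 2 was high for Siglece (19.4 CPM).

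Microglia also occurred in 2 late libraries of sorted RFP-/YFP+ cells, which entered only 1 alternative fit: 36 cells in D10_infiltrating 2 and 41 in D21_infiltrating 1. D10_infiltrating 1 held 10, too few for a sum. In plain CPM, 11 of the 12 genes with the largest rises lay above both Ctrl libraries in both of them, and Cspg4 was at 0 in both. Of all genes tested 12% lay above. The 12 genes were chosen against these same Ctrl libraries, which favours low Ctrl levels, so the 12% is no matched share. With 84112 and 128335 UMIs in the 2 sums, few counts place such a gene above Ctrl, and the count carries no test. All 12 of the genes with the largest falls lay below both Ctrl libraries, as did 55.5% of all genes tested, and all of the 12 but P2ry12 had 0 to 5 counts there. Gpnmb stood at 653.9 and 350.6 CPM there, against 0 in Ctrl.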

How the results depend on the processing

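Late against Ctrl kept within 1.5 times of 1669 calls under RLE, DESeq2, no expression filter, and sort, sex or pool settings. It gave 3418 calls from the 6 Ctrl and late libraries alone, 880 from mixed libraries alone, 525 after thinning to equal depth (3605 genes tested), 1073 in a fit without the D21 library, 516 in a fit with D21 as the only late library and 4348 with no scaling factors. Persisting genes (1502) numbered 779 from mixed libraries alone, 458 after thinning, 975 with D10 alone, 449 with D21 alone and 3716 with no scaling factors. Genes that moved back (1914) numbered 1 with pool as a term, 363 after thinning, 7 with D21 alone, 1012 with a log2 change of at least 1 and 1109 with no scaling factors. Emerging genes (126) numbered 6 with pool as a term, 49 after thinning, 73 with D10 alone, 11 with D21 alone and 249 with no scaling factors. D21 against D10 gave 9 calls with the infiltrating libraries added. Leaving out 1 library at a time gave 347 to 1986 late calls, 292 to 1757 persisting, 785 to 2175 moved back, 52 to 168 emerging and 0 to 0 for D21 against D10. Without the cycling clusters the change of Cdc20 was -0.21. The cause was not tested in any of these. No scaling factors and the removal of the 2 libraries in which microglia were a minority (D2_mixed 2 and D3_mixed 3) were chosen after seeing the data. The share of higher calls was 85.9% from mixed libraries alone, 56.4% from the 6 libraries alone and 92.05% with D21 alone. With pool as a term, D21 against D10 could not be fitted. No paired analysis was possible because the labels give no replicate number that Ctrl and late libraries share, and the pools that Ctrl and D10 libraries share were fitted as a term instead.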

Other observations

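Of 17 immediate early genes tested, 2 were higher, near the 11.3% of all genes tested, and 4 lower (2 and 9 with no scaling factors). Atf3 (log2 3.19), a stress-induced factor, and Egr2 (2.87) were higher, and Jun (-1.57), Btg2, Klf2 and Rhob were lower in late microglia. Atf3 kept its call under every alternative, while without Ctrl_mixed 1 the calls of Egr2 (2.38, edgeR adjusted p = 0.149), Jun (-0.92, 0.462), Btg2 (-1.004, 0.359) and Rhob (-1.24, 0.0516) were lost, as was that of Klf2. Among lineage transcription factors, Bhlhe40, a helix-loop-helix repressor, was at 0.884 and 1.84 CPM in Ctrl and 39.2, 32.1, 31.2 and 39.6 CPM late, while Sall1 (-1.31), a factor of microglial identity, was lower with both controls and did not pass without Ctrl_mixed 1 (-0.87, edgeR adjusted p = 0.306). Of the 21 tested, 18 did not pass, while with no scaling factors 14 were lower and 1 higher.

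Cspg4, better known from oligodendrocyte precursors and pericytes, had 3 counts in Ctrl microglia and 825 late, a ratio of 200 on TMM-scaled totals with a 95% counting interval of 68.3 to 974 (128 on plain totals, 43.6 to 621). Its late levels were 60.7, 64.0, 56.9 and 43.5 CPM.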
